A study of Homo sapiens with 7 samples.

Results

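The insulin-like growth factor (IGF) system was described here through 10 genes, chosen by name from a table of 60234 genes: the ligand IGF2, the receptors IGF1R, INSR and IGF2R, the adaptor IRS1, and the binding proteins IGFBP2, IGFBP3, IGFBP4, IGFBP5 and IGFBP7. All 10 were found once in the table and all 10 were expressed highly enough to be tested. The table holds TPM, a level per transcript scaled by its length and by the library total, from poly-A selected RNA. The cells were cardiomyocytes differentiated from WTC-11, an established human induced pluripotent stem cell line, and matured for 35 days. Each culture then received an antisense oligonucleotide (ASO, a synthetic strand designed to pair with its target RNA) at 2 uM for 96 h, taken up passively. A scrambled ASO was used in 3 libraries and an ASO against MYH7B in 4. MYH7B is described in the study's title as a regulatory long noncoding RNA of the human heart. All libraries come from 1 cell line, and no label says whether the cultures came from separate differentiations, so p-values measure only the spread between these samples, which may be technical.

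IGF2 and IGF1 are secreted peptides that signal through the tyrosine kinase receptor encoded by IGF1R, and IGF2 also binds the insulin receptor encoded by INSR. Activated receptors recruit adaptors such as IRS1, which start the PI3K-AKT and RAS-MAPK cascades. The IGF2R product has no kinase and carries IGF2 to lysosomes, and the binding proteins hold the ligands outside the cell. In the heart this system is known for its part in fetal growth and in insulin control of glucose uptake.

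The libraries are named here by group and by the replicate number in the sample titles. MYH7B ASO replicate 1 was left out because its column is out of row register, with 58721 values and 1513 empty positions, so 3 libraries stand against 3. The targeted transcript was lower in every MYH7B ASO library used, with 22.97, 36.5 and 25.1 TPM of MYH7B in the scrambled ASO libraries and 9.30, 5.65 and 6.31 TPM in MYH7B ASO replicates 2 to 4 (log2 fold change -1.85, limma adjusted p = 0.0109). Scrambled ASO replicate 3 stood apart from the other libraries used, with 27.4% of TPM in mitochondrially encoded genes against 31.2% to 33.6%. Its summed level of 8 fibroblast markers was 5173 TPM, against 2881 and 3025 TPM in the other scrambled ASO libraries. Depth is unknown, since every column sums to 1000000 TPM. The 8 cardiomyocyte markers were all expressed, at a summed 8428 to 9384 TPM with the scrambled ASO and 6758 to 8029 TPM with the MYH7B ASO. The 8 endothelial markers summed to 36.8 to 48.8 and 37.1 to 56.1 TPM, nearly all of it from EGFL7, TEK and KDR, and 3 of them were below 1 TPM in each of the 6 libraries. PECAM1 was at 1.12 TPM or less and VWF at 0.307 TPM or less.

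Among the 3 receptor genes, INSR was lower and IGF2R higher in every MYH7B ASO library used, and IGF1R overlapped between the groups. None of them passed an adjusted p of 0.05 in limma. IGFBP7 differed by as much as INSR, but no upstream stretch was available for it. The stretches just upstream of the start sites of the 3 receptor genes are shown first. Each is the 250 bases before the RefSeq start site, read 5′ to 3′ on the strand of the gene in GRCh38.p14, with GC boxes (GGGCGG or its reverse complement CCGCCC, the element bound by SP family factors) in capitals.
INSR, chr19:7294415-7294664, minus strand: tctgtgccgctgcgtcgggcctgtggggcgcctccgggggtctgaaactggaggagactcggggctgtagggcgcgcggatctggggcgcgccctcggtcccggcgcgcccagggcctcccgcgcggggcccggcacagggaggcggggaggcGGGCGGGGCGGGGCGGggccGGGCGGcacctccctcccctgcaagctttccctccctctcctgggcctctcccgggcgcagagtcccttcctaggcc
IGF1R, chr15:98648289-98648538, plus strand: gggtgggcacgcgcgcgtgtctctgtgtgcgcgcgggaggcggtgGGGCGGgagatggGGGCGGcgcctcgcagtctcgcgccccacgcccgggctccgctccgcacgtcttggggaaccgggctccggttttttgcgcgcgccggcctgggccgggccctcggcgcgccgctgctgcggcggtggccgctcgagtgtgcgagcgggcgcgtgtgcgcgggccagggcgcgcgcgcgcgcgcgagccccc
IGF2R, chr6:159968832-159969081, plus strand: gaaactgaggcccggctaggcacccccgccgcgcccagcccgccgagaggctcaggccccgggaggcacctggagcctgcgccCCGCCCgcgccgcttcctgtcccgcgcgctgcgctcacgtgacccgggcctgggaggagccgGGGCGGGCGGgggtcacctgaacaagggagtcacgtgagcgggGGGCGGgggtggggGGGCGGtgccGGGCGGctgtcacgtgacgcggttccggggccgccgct

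The windows of INSR, IGF1R and IGF2R held 4, 2 and 6 GC box matches, overlapping ones included, and were 78.4%, 81.2% and 79.2% G and C. Over all 35116 windows of the same length, the median was 58.0% and 42.6% held at least 1 GC box. The RefSeq start of INSR lies 380 bases upstream of the start in GENCODE 29, so the window depends on the annotation. Of the 10 members, 8 had a window in the RefSeq table. GC boxes were not particular to the receptor genes: 7 of these 8 members had at least 1. Of the 10 member windows, 8 were above the median in G and C. A TATA box (TATAAA or TTTATA) was found in the window of IGFBP4 alone, against 10.7% of all windows. An MCAT element (CATTCC or GGAATG, the site of TEAD factors) was found upstream of IGFBP5 and IRS1, against 11.9% of all windows. A forkhead element (GTAAACA or TGTTTAC) was found in none of the member windows, against 2.98% of all windows. These are letter matches, and no binding was measured.

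The system was dominated by its ligand. IGF2 (ENSG00000167244.21, chromosome 11, 2129112 to 2149603 on GRCh38 in GENCODE 29, as are the positions given for the other genes) was listed at 1842, 1611 and 1675 TPM with the scrambled ASO. It was listed at 1495, 1556 and 1537 TPM with the MYH7B ASO. All 3 MYH7B ASO libraries therefore lay below all scrambled ASO libraries, by a small margin: the means were 1709 ± 119 and 1529 ± 31.7 TPM (SD, n = 3 each). The log2 fold change was -0.16 (standard error 0.11) and did not pass (limma adjusted p = 0.540). With mitochondrially encoded genes removed it was -0.13 (limma adjusted p = 0.586), and whether the groups overlapped on that scale was not examined. IGF2 made up 0.149% to 0.184% of all TPM and stood at the 99.4th percentile of the tested genes by mean level. The other ligands were scarce. IGF1 was at 0.0144, 0.963 and 2.11 TPM with the scrambled ASO and at 0.104, 0.788 and 0.162 TPM with the MYH7B ASO, too low to be tested. INS, which encodes insulin, was listed at 0 in all 6 libraries. These 2 ligand genes were named for their role after their values were seen. IGF2 overlaps the readthrough gene INS-IGF2 and the antisense gene IGF2-AS, so reads in shared stretches cannot be assigned with certainty.

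**Figure D1:**
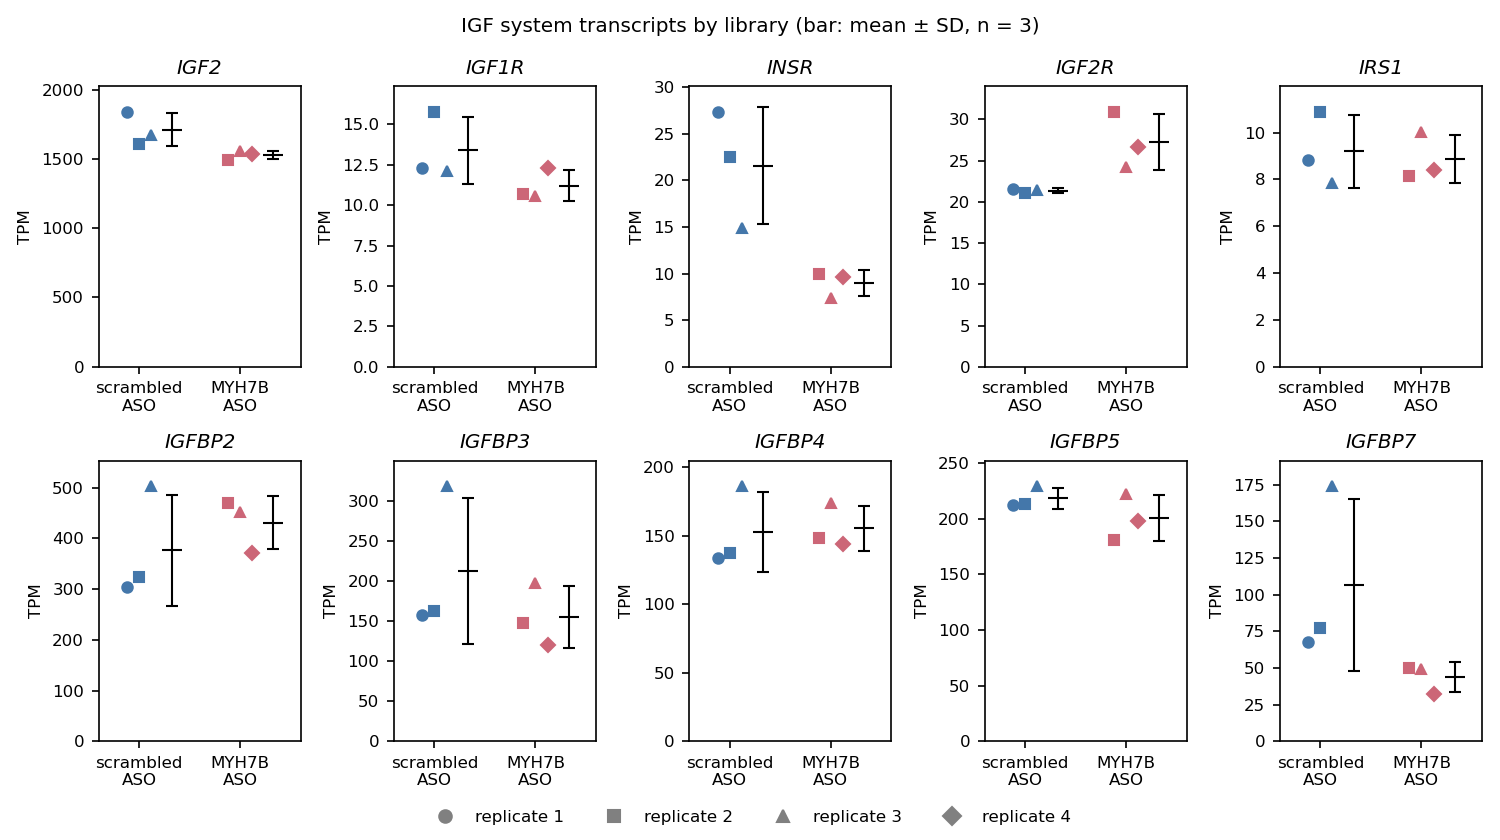
TPM of the 10 IGF system genes in the 6 libraries used, blue for the scrambled ASO and red for the MYH7B ASO, with the symbol shape giving the replicate number and the black bar the mean ± SD of 3 libraries. INSR and IGFBP7 are lower and IGF2R is higher in every MYH7B ASO library, and scrambled ASO replicate 3 (blue triangle) is high for IGFBP2, IGFBP3, IGFBP4 and IGFBP7.

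Among the receptors, INSR had the largest difference. INSR (ENSG00000171105.14, chromosome 19, 7112255 to 7294034), which encodes the insulin receptor, had 27.4, 22.5 and 14.9 TPM with the scrambled ASO. With the MYH7B ASO it had 9.92, 7.40 and 9.66 TPM. The groups did not overlap, and the MYH7B ASO mean of 8.99 ± 1.39 TPM (SD, n = 3) was 41.6% of the scrambled ASO mean of 21.6 ± 6.30 TPM (SD, n = 3). On the log2(TPM + 1) scale, which understates changes of low genes, the fold change was -1.15 (standard error 0.24, 95% confidence interval from -1.69 to -0.60). It fell just short of the threshold of 0.05 across all genes (limma adjusted p = 0.0606). The spread came mainly from scrambled ASO replicate 3, the lowest of its group. Without that library the log2 fold change was -1.38 and INSR was called (limma adjusted p = 0.0368, within a range of 0.0308 to 0.722 over the 19 alternatives). INSR was called in 3 of those 19 alternatives and had the same direction in all of them. In the authors' deposited table INSR fell, at -0.97 on the log2 scale (standard error 0.20, adjusted p-value 5.2e-05). Which libraries entered that table, and in which row order MYH7B ASO replicate 1 did, is not given in the sources used here, so its values are not a second test of the same 6 libraries. The cardiomyocyte markers were lower as well, with no overlap of their sums and with 3 of the 8 lower and none higher in every MYH7B ASO library, and their part in the INSR result was not tested. Relative to these markers INSR was also lower in each MYH7B ASO library, at 1.06 to 1.43 TPM against 1.65 to 3.25 TPM per 1000 TPM of the markers, a measure chosen after the values were seen. The sum was weighted towards MYL7, at means of 5204 TPM with the scrambled ASO and 4159 TPM with the MYH7B ASO. Some single markers fell about as far as INSR, with MYH7 at 40.9% and RYR2 at 47.6% of their scrambled ASO means. The groups overlapped for MYH7 and did not overlap for RYR2. Of the 8 markers, 2 (MYH6 and NKX2-5) had log2 fold changes above 0.

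The closely related gene IGF1R was nearer to level between the groups. IGF1R (ENSG00000140443.15, chromosome 15, 98648539 to 98964530), which encodes the type 1 IGF receptor, was at 12.3, 15.8 and 12.1 TPM with the scrambled ASO. It was at 10.7, 10.6 and 12.3 TPM with the MYH7B ASO, so the groups overlapped. The log2 fold change was -0.23, with a 95% confidence interval from -0.62 to 0.16 (limma adjusted p = 0.583). The ratio of INSR to IGF1R levels was 2.23, 1.42 and 1.23 in the scrambled ASO libraries and 0.924, 0.696 and 0.785 in the MYH7B ASO libraries. INSR was thus the more abundant of the pair in each scrambled ASO library and the less abundant in each MYH7B ASO library. As a share of the summed INSR and IGF1R level, INSR went from 61.0% ± 7.16 to 44.4% ± 3.50 (SD, n = 3 each). No p-value is given for ratios, since they were formed over chosen members. An exact permutation p of 3 libraries against 3 could also not go under 0.1.

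IGF2R lay on the other side. IGF2R (ENSG00000197081.14, chromosome 6, 159969099 to 160113507), which encodes the receptor that clears IGF2, was at 21.6, 21.0 and 21.4 TPM with the scrambled ASO, the tightest of the 10 genes within that group. It was at 31.0, 24.2 and 26.6 TPM with the MYH7B ASO, above every scrambled ASO library. The means were 21.4 ± 0.305 and 27.3 ± 3.42 TPM (SD, n = 3 each), and the log2 fold change of 0.33 (standard error 0.15) did not pass (limma adjusted p = 0.345). In the authors' deposited table the value was 0.38, and its adjusted p-value of 0.0659 also missed 0.05. IGF2R and INSR had similar levels with the scrambled ASO, at ratios of IGF2R to INSR of 0.789, 0.936 and 1.44. With the MYH7B ASO the ratio was 3.12, 3.27 and 2.75. The antisense gene AIRN, which lies across IGF2R, was listed at 0 in every library.

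**Figure D2:**
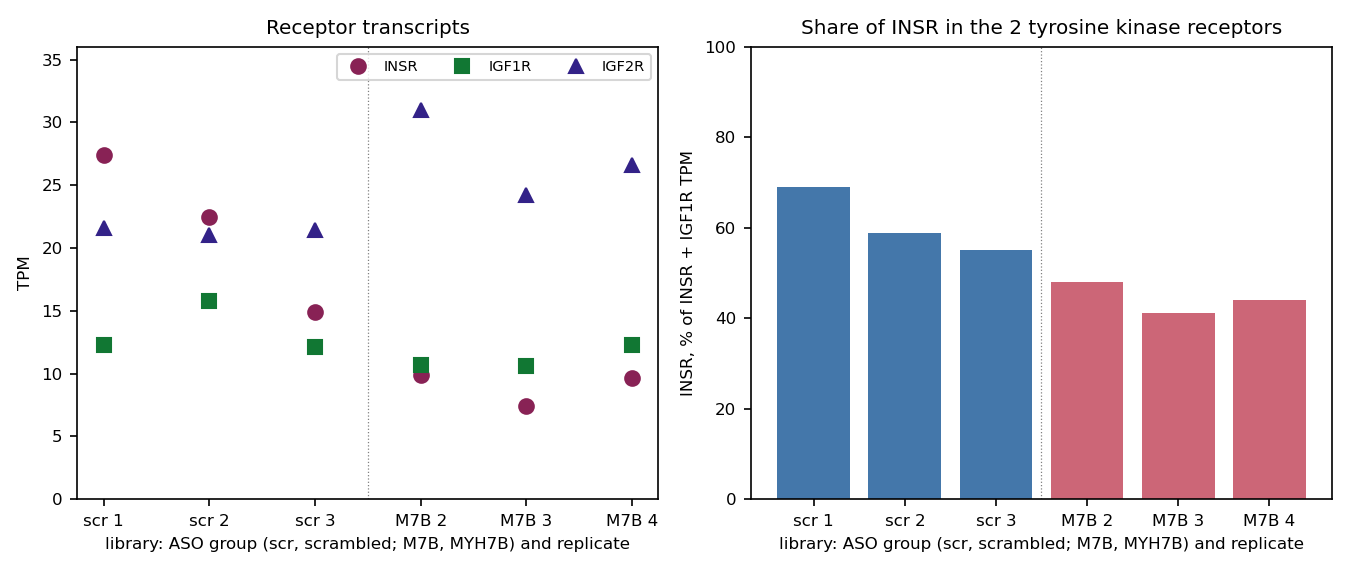
Left, TPM of INSR, IGF1R and IGF2R in each library; right, INSR as a percentage of the summed INSR and IGF1R TPM, with bars from 0. INSR lies above IGF1R in each scrambled ASO library and below it in each MYH7B ASO library, and its share is 55.2% to 69.0% against 41.1% to 48.0%.

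The adaptor gene IRS1 (ENSG00000169047.5, chromosome 2, 226731317 to 226799759) links both receptor kinases to PI3K. It was at 8.85, 10.9 and 7.83 TPM with the scrambled ASO and at 8.16, 10.03 and 8.40 TPM with the MYH7B ASO. The groups overlapped, and the log2 fold change of -0.04 (95% confidence interval from -0.47 to 0.38) did not pass (limma adjusted p = 0.942). Its sign changed under several alternatives, with values from -0.14 to 0.09.

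The binding proteins differed among themselves. IGFBP7 (ENSG00000163453.11, chromosome 4, 57030773 to 57110385), a secreted protein with low affinity for IGFs that is abundant in vessel wall and stroma, was at 68.0, 77.3 and 174 TPM with the scrambled ASO. It was at 50.1, 49.3 and 32.2 TPM with the MYH7B ASO, below every scrambled ASO library. The mean of 43.9 ± 10.1 TPM (SD, n = 3) was 41.2% of the scrambled ASO mean of 106.5 ± 58.9 TPM (SD, n = 3). The log2 fold change of -1.16 (standard error 0.34) did not pass (limma adjusted p = 0.161). Leaving out scrambled ASO replicate 3 gave -0.74 (limma adjusted p = 0.183, within a range of 0.102 to 0.724 over the 19 alternatives). In the authors' deposited table IGFBP7 fell, at -0.93 on the log2 scale (adjusted p-value 4.74e-04).

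In the 6 libraries, the summed fibroblast markers and the summed smooth muscle and pericyte markers were lower together with IGFBP7. The 6 epicardial markers were not, at a summed 670 to 862 TPM with the scrambled ASO and 759 to 913 TPM with the MYH7B ASO. Of the epicardial markers, 0 were lower and 1 was higher in every MYH7B ASO library. The 8 fibroblast markers summed to 2881, 3025 and 5173 TPM with the scrambled ASO and to 1721, 2071 and 1344 TPM with the MYH7B ASO. Of these markers, 5 were lower and 2 (PDGFRA and TCF21) were higher in every MYH7B ASO library. The 8 smooth muscle and pericyte markers summed to 1030 to 1439 TPM and to 608 to 818 TPM, with 5 lower in every MYH7B ASO library and none higher. No gene of the fibroblast list or of the smooth muscle and pericyte list was at 0 in all libraries. Nearly all of the fibroblast sum came from COL1A1, COL1A2 and COL3A1, at scrambled ASO means of 1667, 765 and 1099 TPM. PDGFRA and TCF21 were at 23.7 and 8.40 TPM, so a value relative to the sum is mainly relative to collagen transcripts. Per 1000 TPM of the fibroblast markers, IGFBP7 was at 23.6, 25.5 and 33.7 TPM with the scrambled ASO and at 29.1, 23.8 and 24.0 TPM with the MYH7B ASO, so on this measure, chosen after the values were seen, the groups overlapped. The part of these markers in the IGFBP7 result was not tested, and in bulk RNA fewer cells of a type and less RNA per cell cannot be told apart.

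IGFBP3 (ENSG00000146674.15, chromosome 7, 45912245 to 45921874), the main carrier of IGFs in blood, was at 158, 162 and 318 TPM with the scrambled ASO and at 148, 197 and 120 TPM with the MYH7B ASO. The groups overlapped, and the log2 fold change of -0.41 (standard error 0.29) did not pass (limma adjusted p = 0.565). It rested on scrambled ASO replicate 3, without which it was -0.08 (limma adjusted p = 0.888, within a range of 0.379 to 0.919).

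IGFBP2 (ENSG00000115457.10, chromosome 2, 216632828 to 216664436), a binding protein that prefers IGF2, was the most abundant of the 5 in every library. It was at 304, 324 and 503 TPM with the scrambled ASO and at 469, 453 and 372 TPM with the MYH7B ASO. The log2 fold change of 0.22 (95% confidence interval from -0.24 to 0.69) did not pass (limma adjusted p = 0.643). IGFBP5 (ENSG00000115461.5, chromosome 2, 216672105 to 216695525), a binding protein that attaches to matrix, lies 7668 bp from IGFBP2, and the ends of both genes face each other. IGFBP5 was at 212, 213 and 229 TPM with the scrambled ASO and at 181, 222 and 198 TPM with the MYH7B ASO. The IGFBP5 log2 fold change of -0.13 (95% confidence interval from -0.42 to 0.16) did not pass either (limma adjusted p = 0.676).

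IGFBP4 (ENSG00000141753.7, chromosome 17, 40443461 to 40457731) encodes a binding protein that releases IGF when cut by the protease encoded by PAPPA. It was at 134, 137 and 186 TPM with the scrambled ASO and at 148, 174 and 144 TPM with the MYH7B ASO, a log2 fold change of 0.04 (95% confidence interval from -0.33 to 0.41, limma adjusted p = 0.937).

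The 5 binding proteins together summed to 877, 913 and 1412 TPM with the scrambled ASO and to 996, 1095 and 866 TPM with the MYH7B ASO, and the groups overlapped. IGFBP2 made up 34.7%, 35.5% and 35.7% of it with the scrambled ASO and 47.1%, 41.3% and 42.9% with the MYH7B ASO. IGFBP7 made up 7.76%, 8.47% and 12.3%, and 5.03%, 4.50% and 3.72%, respectively. Neither share overlapped between the groups, while those of IGFBP3, IGFBP4 and IGFBP5 did. The level of IGF2 relative to the summed binding proteins was 1.68 ± 0.462 and 1.57 ± 0.186 (SD, n = 3 each), with overlap.

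**Figure D3:**
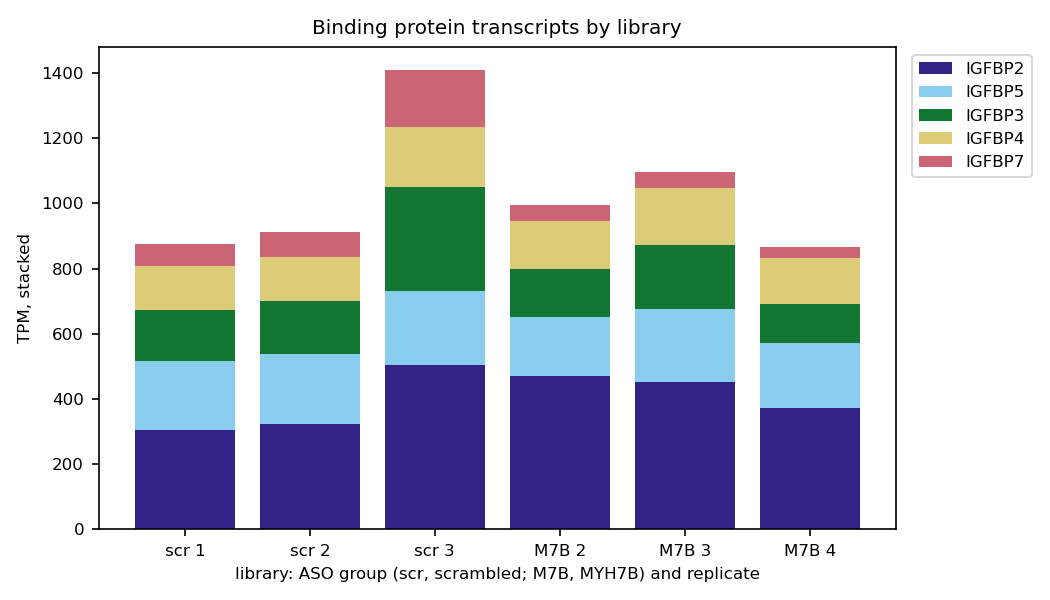
Stacked TPM of the 5 binding protein transcripts in each library, with bars from 0. Scrambled ASO replicate 3 has the largest total, 1412 TPM, and the IGFBP7 segment is thinner in each MYH7B ASO library than in any scrambled ASO library.

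By mean level with the scrambled ASO, the order was IGF2, IGFBP2, IGFBP5, IGFBP3, IGFBP4, IGFBP7, INSR, IGF2R, IGF1R and IRS1. IGF2 lay above the rest in every library. IGFBP5, IGFBP3 and IGFBP4 were neighbours whose ranges overlapped in turn (IGFBP3 with both others), at 212 to 229, 158 to 318 and 134 to 186 TPM. Within each scrambled ASO library, IGFBP3 lay above IGFBP4. IGFBP2, at 304 to 503 TPM, overlapped the range of IGFBP3 too, but lay above IGFBP3 within each library. IGFBP7, at 68.0 to 174 TPM, overlapped the ranges of IGFBP3 and IGFBP4, but lay below both within each scrambled ASO library. INSR and IGF2R could not be ordered with the scrambled ASO, at 14.9 to 27.4 and 21.0 to 21.6 TPM. IGF1R, at 12.1 to 15.8 TPM, overlapped the range of INSR but not that of IRS1, at 7.83 to 10.9 TPM. Within each scrambled ASO library, IGF1R lay below INSR.

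Across all 10 members, limma called none at an adjusted p under 0.05, against 1.66% of the 15988 tested genes (265 genes; 29 or 0.181% higher and 236 or 1.48% lower). At an unadjusted p under 0.05 there were 2 members, INSR and IGFBP7, against 15.2% of all tested genes. On the TPM scale, 3 members (IGF2, INSR and IGFBP7) were lower in every MYH7B ASO library used, against 14.1% of all tested genes. IGF2 was so only by a small margin. On the same scale 1 member (IGF2R) was higher in every MYH7B ASO library used, against 7.11%. The median log2 fold change was -0.14 over the members and -0.04 over all tested genes. Of the 10 members, INSR and IGFBP7 had an adjusted p-value under 0.05 in the authors' deposited table, both lower, against 8.71% of the genes with an adjusted p-value and 5.69% called lower.

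**Figure D4:**
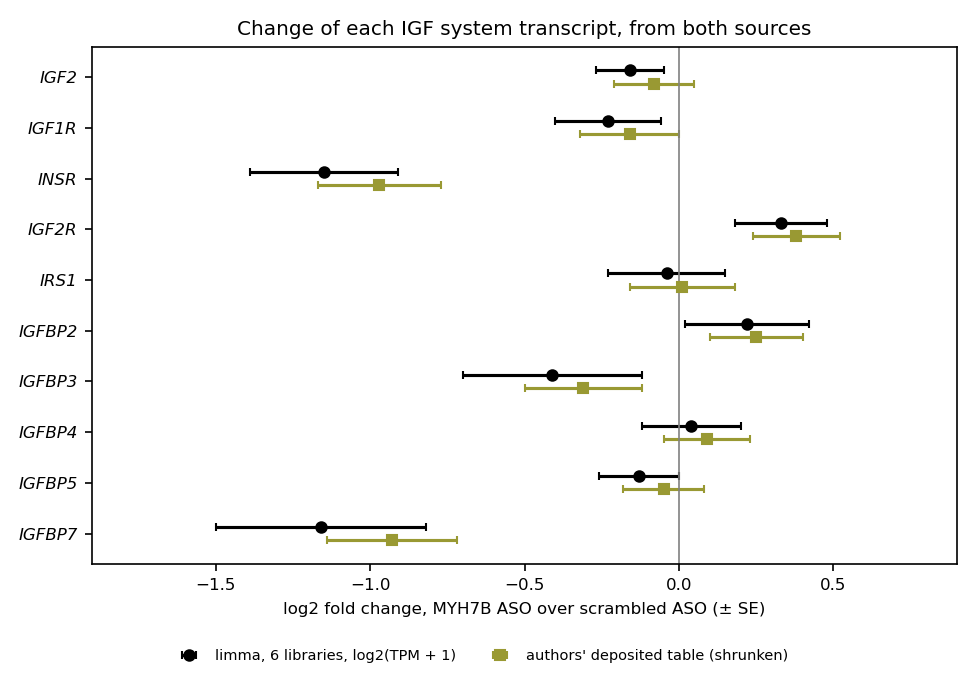
Log2 fold change ± SE of the 10 genes, MYH7B ASO over scrambled ASO, from limma on the 6 libraries (black circles) and from the authors' deposited table (olive squares). INSR and IGFBP7 lie at -1.15 and -1.16 in limma and at -0.97 and -0.93 in the authors' table, and the other 8 genes lie between -0.41 and 0.38 in both.

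The values of MYH7B ASO replicate 1 could be read once its column was put back in the gene order of GENCODE 29. This library stood apart from the other 6, with 17.2% of TPM in mitochondrially encoded genes against 27.4% to 33.6%, and with 14823 genes at 1 TPM or more, the fewest of the 7. In GENCODE 29 order it had 6.43 TPM of INSR and 29.4 TPM of IGF2R, on the same side of every scrambled ASO library as the other MYH7B ASO libraries. Its 65.4 TPM of IGFBP7 lay just below the lowest scrambled ASO library. Its 348 TPM of IGFBP3, 729 TPM of IGFBP2 and 203 TPM of IGFBP4 lay above the highest, and its 227 TPM of IGFBP5 lay within the scrambled ASO range. Its 1753 TPM of IGF2 lay above scrambled ASO replicates 2 and 3, so with this library the IGF2 groups overlapped in TPM. TPM are shares of a total that includes the mitochondrially encoded genes, so a low mitochondrial share raises the TPM of all other genes. The placements of this library were not repeated without those genes, and the part of that share in them was not tested. Its fibroblast markers summed to 4069 TPM, within the scrambled ASO range, and its smooth muscle and pericyte markers to 1272 TPM, also within that range. Per 1000 TPM of the fibroblast markers it had 16.1 TPM of IGFBP7, below each of the other 6 libraries. With this library included, INSR had a log2 fold change of -1.25 (limma adjusted p = 0.0508), and again no member was called, against 1.07% of the genes tested over 7 libraries. The targeted gene MYH7B, at 1.29 TPM in this library, was not called in that fit either (log2 fold change -2.3, limma adjusted p = 0.0525).

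The rest of the pathway was read from 7 lists of 95 genes, of which 84 were expressed highly enough to be tested. Limma called 2 of the 84, both lower and both in the list of adaptors and PI3K-AKT genes, against 1.48% of all tested genes called lower. PDPK1, which encodes the kinase that activates AKT, was at 14.1, 14.2 and 17.6 TPM with the scrambled ASO and at 7.81, 5.45 and 7.20 TPM with the MYH7B ASO. It fell by 1.07 on the log2 scale (standard error 0.19, limma adjusted p = 0.0350). Its log2 fold change in the authors' deposited table was -0.94 (adjusted p-value 6.27e-06). A near-identical pseudogene can share reads with PDPK1, so its level is uncertain. PDPK1 was not called when any 1 of the 6 libraries was left out, nor when the replicate number was a block. The block fits cannot decide, since only 2 replicate numbers are shared by both groups.

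Of the 23 tested adaptor and PI3K-AKT genes, 2 were called lower, 21 were not called and the median log2 fold change was -0.06. No gene was called in the other 6 lists. The 12 tested regulators of IGF availability and their imprinted or RNA-binding partners had a median of -0.34. The most abundant were H19, the imprinted noncoding neighbour of IGF2, and HTRA1, a protease that cuts IGFBP5. H19 was at 3478, 3435 and 6201 TPM with the scrambled ASO and at 3003, 3789 and 3284 TPM with the MYH7B ASO, and like IGFBP3 it was highest in scrambled ASO replicate 3.

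The 12 tested mTORC1 and translation genes had a median of -0.21, with EIF4EBP1 and RHEB the most abundant at log2 fold changes of 0.02 and 0.19. The 14 RAS-MAPK genes had a median of -0.14, with MAP2K2 at -0.38 (limma adjusted p = 0.238). The FOXO list, of FOXO factors and genes they activate when insulin signalling is low, had 13 tested genes and a median of -0.07. The most abundant of these, the muscle ubiquitin ligase genes TRIM63 and FBXO32, had log2 fold changes of 0.19 and -0.01. The 8 glucose transport and glycogen genes had a median of -0.04. SLC2A1, the basal glucose transporter, was at 332 to 419 TPM with the scrambled ASO and at 333 to 456 TPM with the MYH7B ASO, and TBC1D1 had a log2 fold change of -0.43 (limma adjusted p = 0.354). Of the remaining ligand, receptor and binding protein genes only IGFBP6 and IGFBPL1 could be tested, at log2 fold changes of -0.01 and 0.35.

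**Figure D5:**
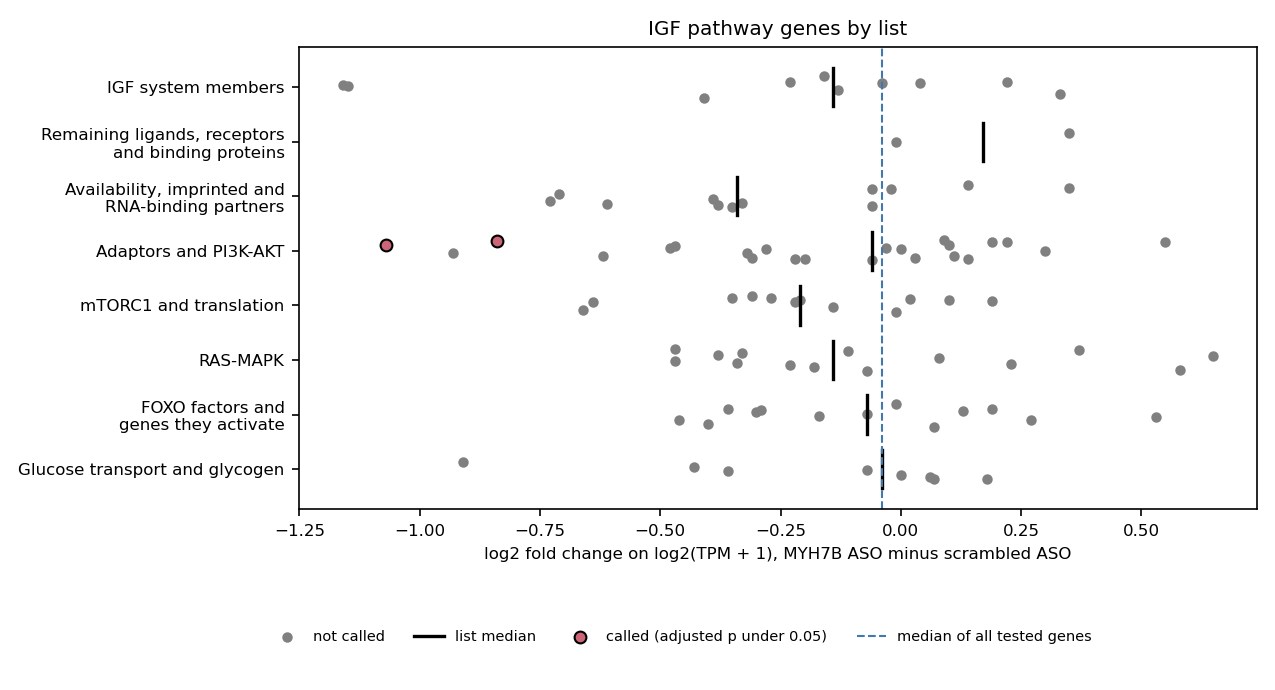
Log2 fold change on log2(TPM + 1) of each tested gene, MYH7B ASO minus scrambled ASO, for the IGF system members and 7 further lists, with black bars for list medians and a dashed line for the median of all tested genes, -0.04. The 2 called genes, PDPK1 at -1.07 among them, stand towards the low end of the adaptor and PI3K-AKT list.

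In the authors' deposited table, 9 of the 87 listed genes with an adjusted p-value were under 0.05, against 8.71% of all genes, 7 lower and 2 higher. These were named after their values were seen. Besides PDPK1, the lower ones included the adaptor gene GAB1 (-0.77), TBC1D4 (-0.77), a regulator of glucose transporter traffic, HMGA2 (-0.62), PAPPA (-0.56) and TSC2 (-0.55), a brake on mTORC1. The higher ones were MAPK3 (0.57) and PAPPA2 (0.63), a protease that cuts IGFBP3 and IGFBP5. PAPPA2 was at 0.120, 0.0591 and 0.152 TPM with the scrambled ASO and at 1.12, 1.94 and 0.0392 TPM with the MYH7B ASO, with overlap, and was too low to be tested by limma. PAPPA was at 10.2, 9.95 and 10.4 TPM with the scrambled ASO and at 3.92, 7.76 and 6.37 TPM with the MYH7B ASO, groups that did not overlap, with a limma log2 fold change of -0.71 (limma adjusted p = 0.200).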

How the data were processed

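Poly-A RNA sequencing of 7 libraries was analysed from 2 deposited tables. Per the file headers and the column sums, the authors deposited TPM per gene, and each library's column was matched by its description label. The authors' deposited comparison table gives a mean normalized count (a signal over the libraries compared), a log2 fold change, which its name says was shrunken, its standard error, a test score, and a p-value with its adjusted form. DESeq2 and GRCh38.p13 are named in the submitters' processing notes, and the aligner and quantifier are not given in the sources used here. No per-sample column was left unused, at a count of 0.

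MYH7B ASO replicate 1 was left out of the main comparison. Its log2(TPM + 1) values had a median correlation with the other 6 libraries of 0.408 as deposited and 0.955 in GENCODE 29 order (0.416 with that order shifted by 1 position), across genes, against 0.959 to 0.979 among the others. The reordered column entered 1 alternative.

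The 15988 genes whose mean over the 6 libraries reached 1 TPM entered a limma fit (version 3.58.1, R 4.3.3) on log2(TPM + 1), with lmFit and eBayes with trend, no covariate, and Benjamini-Hochberg adjustment over all of them. Called means an adjusted p under 0.05. The script was tested on simulated data. Tables were made with pandas 2.3.3 and numpy 2.4.6 under Python 3.11.15, and plots with matplotlib 3.10.9. The alternatives were other pseudocounts, filters, scalings, variance settings, sample weights, replicate blocks, leaving out each library, and 7 libraries. The members and lists were chosen with earlier results of these data known. By rule, named genes were the members, MYH7B, called genes of each list, and otherwise the 2 most abundant of a list. Some other genes, IGF2BP1, IGF2BP2, IGF2BP3 and HMGA2 among them, were named outside the rule with their values known. Genes most like a called member were to be named, and no member was called. Values of some genes that this rule names are not reported here.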

Additional observations from a re-analysis of the deposited data

How the results depend on the processing

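No member was called in the main fit, and 1, INSR, was called when only genes averaging 5 TPM or more were tested (limma adjusted p = 0.0308), with sample weights (0.0444) and without scrambled ASO replicate 3. Leaving out each library in turn called 0 to 1 members, 0 other pathway genes (2 in the main fit) and 53 to 149 of all genes (265 in the main fit, fewest without MYH7B ASO replicate 4). Without a filter on low values, 0 pathway genes and 40 of all genes were called, without a trend 0 and 150, and over 7 libraries 170 of all genes. With the replicate block by title or by description number, 0 members, 0 pathway genes and 0 of all genes were called, with 2 members and 2 members, 10 and 4 pathway genes, and 1718 and 1096 of all genes at an unadjusted p under 0.05. Only 2 numbers are shared by both groups, so the block fits had almost nothing left to estimate the spread. Their lack of calls cannot decide about any gene. The highest limma adjusted p of INSR (0.722) and of IGFBP7 (0.724) came from the block by description number. Correlations of the deviations of libraries that share a number were 0.08 and 0.11 by title and -0.07 and -0.04 by description, and 2 pairs do not establish a pairing. IRS1 (-0.04 in the main fit) was at 0.02 with median-ratio rescaling, 0.09 with quantile normalization, and 0.08 over 7 libraries, and leaving out single libraries gave -0.14 to 0.08. IGFBP4 (0.04) was at -0.01 with the block by description number, and from -0.05 to 0.19 when single libraries were left out. The other 8 members kept their direction in all 19 alternatives. Of all called genes, 89.1% were lower, against 78.6% with median-ratio rescaling and with quantile normalization, and 78.9% without scrambled ASO replicate 3. The causes were not tested. With 3 libraries a group and unknown depth, small differences such as that of IGF2 could not be resolved.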

Other observations

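IGF2BP1, IGF2BP2 and IGF2BP3 encode fetal RNA-binding proteins that were named for binding IGF2 transcripts. These genes and HMGA2 were picked outside the rule for named genes, with their values known. IGF2BP3 was at 36.6, 21.6 and 21.9 TPM with the scrambled ASO and at 16.2, 15.3 and 18.4 TPM with the MYH7B ASO, groups that did not overlap, with a log2 fold change of -0.61 that did not pass (limma adjusted p = 0.236). IGF2BP1 had a log2 fold change of -0.39 (limma adjusted p = 0.357), and IGF2BP2, at 41.2 to 43.3 and 32.3 to 51.4 TPM, had one of -0.06 (limma adjusted p = 0.908). HMGA2, a fetal chromatin protein gene, was at 21.3, 30.7 and 26.0 TPM and at 14.7, 14.9 and 15.8 TPM, a log2 fold change of -0.73 (limma adjusted p = 0.0882), and was lower in the authors' deposited table with an adjusted p-value of 0.00533. The ratio of H19 to IGF2 levels was 1.89, 2.13 and 3.70 with the scrambled ASO and 2.01, 2.43 and 2.14 with the MYH7B ASO, with overlap.

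Relative to the summed fibroblast markers, IGFBP3 and IGFBP7 stood differently, a comparison chosen after the values were seen. That sum is mainly collagen transcripts, which were lower with the MYH7B ASO, while the low-level markers PDGFRA and TCF21 were higher. Per 1000 TPM of those markers, IGFBP3 was at 54.9, 53.6 and 61.6 TPM with the scrambled ASO and at 86.1, 95.0 and 89.1 TPM with the MYH7B ASO, without overlap, while the IGFBP7 ranges overlapped.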
